A study of Danio rerio with 3 samples.

Results

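The genes described are the 2 ligands and 2 receptors of the Cxcl12 chemokine axis in zebrafish, *cxcl12a* (ENSDARG00000037116), *cxcl12b* (ENSDARG00000055100), *cxcr4a* (ENSDARG00000057633) and *cxcr4b* (ENSDARG00000041959). They were taken by gene name, 4 of the 31950 genes in the deposited tables, and each name matched 1 gene. Their counts are whole numbers in all 3 libraries, whereas 742 to 756 genes per library have fractional counts. RNA came from whole *Tg(lyz:TagRFP)* embryos, a line whose neutrophils carry a red fluorescent protein under the lysozyme promoter. All embryos had been injected with mRNA for a Halo-TEV-Keap1 fusion protein, the non-treated ones included. The sample labels number the Keap protein of the construct differently for each library, whereas the study's methods give Keap1 throughout. Each condition has 1 library: non-treated, HNE Z-REX and HDE Z-REX. Z-REX anchors a light-sensitive precursor on the Halo tag, and illumination then releases the electrophile next to Keap1. HNE is 4-hydroxynonenal, and HDE is 4-hydroxydodecenal, the same kind of molecule with a longer carbon chain. The study used forms of both that carry an alkyne group. For Z-REX, embryos were kept with 1 μM of precursor for 30 h in the dark. They were then given light of 365 nm at 0.5 mW per cm² for 3 min, and RNA was taken 1.5 h later. The dose belongs to the HNE precursor, and that of the HDE precursor is not given in the sources used here. Neither is the number of embryos in a library. No precursor or light is given for the non-treated embryos, and no library had precursor or light alone. In comparisons with the non-treated library, electrophile, precursor and light therefore cannot be told apart.

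Cxcl12, also known as SDF-1, is a secreted chemokine, and Cxcr4 is the G-protein-coupled receptor through which cells follow it. Zebrafish kept duplicate copies of both. In this fish, Cxcl12a laid along the flank guides the lateral line primordium, and it also guides primordial germ cells. Both migrating cell types read it with Cxcr4b. Ackr3b, formerly Cxcr7b, binds the same ligand without signalling through G proteins and removes it. *cxcr4a* is known from blood vessels, and Cxcr4b also holds neutrophils in the blood-forming tissue. A whole-embryo library sums all of these cell types, so fewer cells of a type and less RNA per cell cannot be told apart.

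Library totals lay between 15084289 counts (HDE) and 17996107 counts (non-treated). The 4 genes together had 2354 counts in the non-treated, 2297 in the HNE and 1874 in the HDE library. Across the 18563 genes averaging 10 counts or more, 624 differed between HNE and non-treated, 791 between HDE and non-treated and 651 between HNE and HDE. A gene was called different at an adjusted p under 0.05 and a ratio of at least 1.5-fold. A gene's reads in 2 libraries were set against each other with a two-sided exact binomial test, which compares those libraries and not the conditions. Normalized counts (CPM) are counts scaled to a common library size with TMM, a trimmed-mean method. Of the calls, 51.9%, 65.1% and 34.4% were toward higher counts in the first-named library. When scaled by total counts instead, these shares were 54.3%, 78.6% and 22.9%. No condition has a replicate, so no difference has a replicate check. All 95% intervals given are exact and cover counting error only.

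Transcripts of all 4 genes were present at moderate levels. The levels of different genes are compared here in FPKM, which allows for transcript length. *cxcl12a*, the guidance ligand of the flank, had 16.9 FPKM without treatment, 15.8 after HNE and 15.7 after HDE. *cxcl12b*, its paralog, had 17.6, 18.1 and 16.0 FPKM in the same order of libraries. *cxcr4a* had 12.4, 11.2 and 10.6 FPKM. *cxcr4b* had 11.63, 11.9 and 9.69 FPKM. Both ligands stood above both receptors in every library. Within the ligand pair, *cxcl12b* was above *cxcl12a* in 3 of 3 libraries. Within the receptor pair the order changed, and *cxcr4a* was above *cxcr4b* in the non-treated and HDE libraries and below it after HNE. In CPM, which does not allow for length, *cxcr4a* was just below *cxcr4b* without treatment, at 17.6 and 17.7. Against non-treated, *cxcr4a* had FPKM ratios of 0.898 (HNE) and 0.848 (HDE), beside ratios of normalized counts of 0.945 and 0.895. The counting intervals of the 2 receptors overlapped in every library. Those of the 2 ligands overlapped in the non-treated and HDE libraries. After HNE, *cxcl12a* ran from 14.7 to 16.9 FPKM and *cxcl12b* from 17.0 to 19.4. In CPM the same 2 intervals overlapped, at 43.4 to 49.9 for *cxcl12a* and 46.5 to 53.1 for *cxcl12b*, from 816 and 871 counts. The gap in FPKM thus combines the difference in counts with the transcript lengths behind FPKM. By FPKM the 4 genes lay between the 61.9th and the 76.0th percentile of the tested genes.

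**Figure D1:**
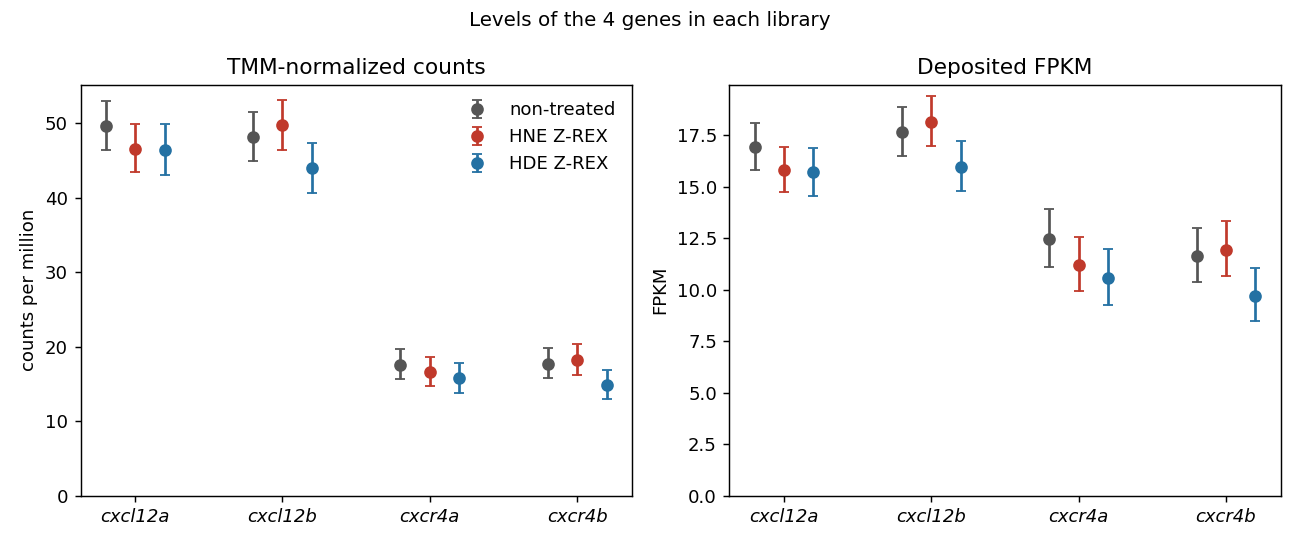
Levels of *cxcl12a*, *cxcl12b*, *cxcr4a* and *cxcr4b* in the non-treated (grey), HNE Z-REX (red) and HDE Z-REX (blue) library, as TMM-normalized CPM (left) and as deposited FPKM (right). Points are single libraries and bars are 95% Poisson intervals of the counts. The ligands lie between 43.9 and 49.7 CPM and the receptors between 14.8 and 18.2, and within a gene the bars of the 3 libraries overlap.

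After HNE Z-REX the 4 genes stayed close to their non-treated levels. *cxcl12a* had 816 counts after HNE and 878 without treatment, or 46.6 and 49.6 CPM after normalization. The ratio was 0.938 (95% interval 0.852 to 1.03; adjusted p = 0.46, exact binomial test). *cxcl12b* had 871 and 852 counts, a ratio of 1.03 (0.938 to 1.14). One ligand was thus slightly lower and the other slightly higher, and both intervals include 1. *cxcr4a* had 291 and 311 counts, a ratio of 0.945 (0.802 to 1.11). *cxcr4b* had 319 and 313 counts, a ratio of 1.03 (0.878 to 1.21). Of the 4 genes, 0 were called, against 3.36% of all genes tested, and 0 had an unadjusted p under 0.05. Their median log2 ratio was -0.02, beside 0.0037 over all genes tested. Intervals that exclude 1 were found for 0 of the 4 and for 25.1% of all genes. The limits of the 4 intervals lay between 0.802 and 1.21, so each was within 1.5-fold both ways, as were 59.7% of all genes. At this depth a change of 1.5-fold in any of these 4 genes between this pair of libraries lies outside the counting interval.

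After HDE Z-REX all 4 genes had lower normalized counts than in the non-treated library, by margins that did not pass the test. *cxcr4b*, the receptor of the lateral line primordium, had the largest difference, with 230 counts after HDE and 313 without treatment, or 14.8 and 17.7 CPM. Its ratio was 0.838 (0.704 to 0.997; unadjusted p = 0.0432, adjusted p = 0.145, exact binomial test). *cxcr4a* had 244 and 311 counts, a ratio of 0.895 (0.754 to 1.06). *cxcl12b* had 681 and 852 counts, a ratio of 0.912 (0.823 to 1.01). *cxcl12a* had 719 and 878 counts, a ratio of 0.934 (0.845 to 1.03). None of these 3 intervals excludes 1. The number called was 0 of 4, against 4.26% of all genes, and 1 of 4 had an interval excluding 1, against 30.5% of all genes. The median log2 ratio of the 4 was -0.15, beside 0.0072 over all genes. The 4 intervals lay within 1.5-fold both ways, as for 56.7% of all genes. Scaled by total counts, the ratio of *cxcr4b* was 0.877 and its interval, 0.736 to 1.04, includes 1. The comparisons of HNE and HDE with non-treated embryos share 1 non-treated library.

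The HNE and HDE libraries, which both come from embryos that received a precursor and light, were also compared with each other. The libraries were made with electrophiles that differ in the length of the carbon chain. Each electrophile had its own precursor, the dose of the HDE precursor is not given, and each condition has 1 library. Electrophile, precursor and a difference between single libraries therefore cannot be told apart. All 4 genes had higher normalized counts after HNE than after HDE. For *cxcr4b* the counts were 319 after HNE and 230 after HDE, a ratio of 1.23 (1.03 to 1.46; unadjusted p = 0.0186, adjusted p = 0.092, exact binomial test). For *cxcl12b* they were 871 and 681, a ratio of 1.13 (1.02 to 1.25; unadjusted p = 0.0157, adjusted p = 0.081, exact binomial test). The ratio of *cxcr4a* was 1.06 (0.887 to 1.26), and that of *cxcl12a* was 1.00 (0.907 to 1.11). So the intervals of 1 receptor and 1 ligand lie above 1 and those of their paralogs include it. The number called was 0 of 4, against 3.51% of all genes, and 2 of 4 had an interval excluding 1, against 26.5% of all genes. The 4 intervals were within 1.5-fold both ways, as were those of 58.1% of all genes. The median log2 ratio of the 4 was 0.13, beside -0.00077 over all genes. Scaled by total counts, the intervals of *cxcr4b* (0.994 to 1.41) and *cxcl12b* (0.985 to 1.21) both include 1, and *cxcl12a* turned to a ratio of 0.967.

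**Figure D2:**
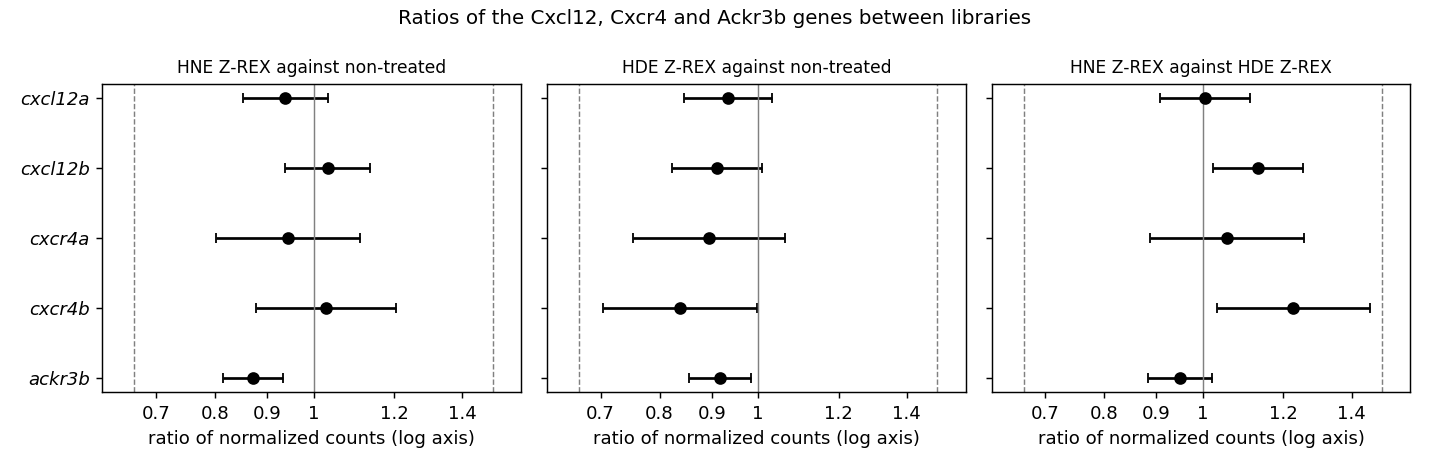
Ratios of TMM-normalized counts of *cxcl12a*, *cxcl12b*, *cxcr4a*, *cxcr4b* and *ackr3b* in the 3 comparisons, on a log axis. Bars are exact 95% intervals for counting error, the solid line marks a ratio of 1 and the dashed lines mark 1.5-fold both ways. All bars lie between the dashed lines, with 0.704 and 1.46, both of *cxcr4b*, as the outermost limits.

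Shares within a library do not depend on the scaling between libraries. *cxcl12a* made up 50.8% of the 1730 ligand counts in the non-treated library (48.4 to 53.1%). It made up 48.4% of 1687 after HNE (46.0 to 50.8%) and 51.4% of 1400 after HDE (48.7 to 54.0%). *cxcr4a* made up 49.8% of the 624 receptor counts without treatment (45.8 to 53.8%), 47.7% of 610 after HNE (43.7 to 51.8%) and 51.5% of 474 after HDE (46.9 to 56.1%). Each paralog pair was therefore split almost evenly by counts in every library. Between HNE and HDE, the odds ratio of *cxcl12a* to *cxcl12b* was 0.887 (0.768 to 1.03) and that of *cxcr4a* to *cxcr4b* was 0.860 (0.671 to 1.1). These intervals include 1, so a different change of the 2 paralogs was not detectable at this depth. The ligands took 73.5%, 73.4% and 74.7% of the counts of all 4 genes in the non-treated, HNE and HDE library. In summed FPKM, ligand exceeded receptor 1.43-fold, 1.47-fold and 1.56-fold in the same order.

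Summed over paralogs, the receptors had 35.3 CPM without treatment, 34.8 after HNE and 30.6 after HDE. The ratio of the receptor sum was 0.987 for HNE against non-treated (0.881 to 1.11) and 0.867 for HDE against non-treated (0.767 to 0.978). The ligand sum had ratios of 0.985 (0.920 to 1.05) and 0.923 (0.860 to 0.991). Scaled by total counts, the HDE ratios were 0.906 (0.803 to 1.02) for the receptors and 0.965 (0.899 to 1.04) for the ligands, and both intervals then include 1.

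*ackr3b* (ENSDARG00000058179), the scavenger receptor for Cxcl12, was more abundant than any of the 4 genes. It had 56.8 FPKM without treatment, 49.3 after HNE and 51.8 after HDE. Its counts were 1818, 1569 and 1462. The ratio for HNE against non-treated was 0.871 (0.814 to 0.933; adjusted p = 0.00104, exact binomial test), a difference under 1.5-fold and so not called. For HDE against non-treated the ratio was 0.917 (0.856 to 0.983; adjusted p = 0.0632, exact binomial test). Scaled by total counts, this interval was 0.895 to 1.03 and includes 1, whereas that for HNE against HDE, 0.884 to 1.02 with TMM, was 0.851 to 0.983 and excludes it. Its paralog *ackr3a* was not matched by name and was not analysed here. *cxcr4a* and *cxcr4b* together made up 25.6% of the counts of the 3 receptor genes without treatment (23.8 to 27.3%), 28.0% after HNE (26.1 to 29.9%) and 24.5% after HDE (22.6 to 26.5%). Between HNE and HDE the odds ratio was 1.2 (1.04 to 1.38), which does not depend on the scaling. Against the non-treated library it was 1.13 (0.992 to 1.29) for HNE and 0.945 (0.821 to 1.09) for HDE. Both of these intervals include 1. The intervals of the odds ratios are not adjusted for the number of shares and comparisons examined.

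**Figure D3:**
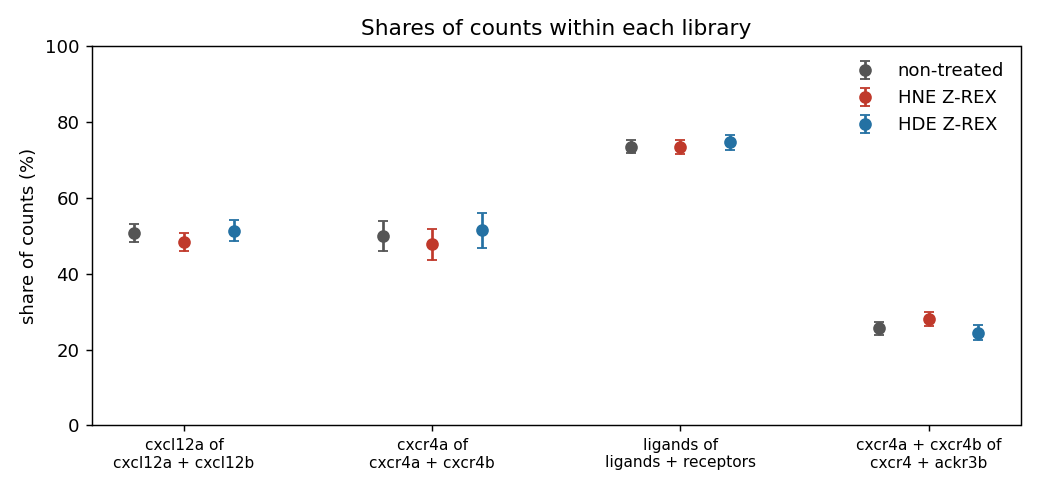
Shares of counts, in percent, within the non-treated (grey), HNE Z-REX (red) and HDE Z-REX (blue) library, with exact 95% binomial intervals. Both paralog pairs sit near an even split, between 47.7 and 51.5%, and the share of *cxcr4a* plus *cxcr4b* among the 3 receptor genes runs from 24.5% to 28.0%.

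Genes that act with the axis were examined as a list of 21 names, of which 19 were matched and tested. It holds *ackr3b*, G-protein subunits and arrestins, receptor kinases, sulfotransferases, *dpp4*, which in mammals encodes a protease that cuts CXCL12, and *hmgb1a* and *hmgb1b*, whose mammalian product binds CXCL12. The number called was 0 of 19 in each of the 3 comparisons. Over all genes tested the shares called were 3.36%, 4.26% and 3.51%, at which 19 genes would hold less than 1 call, so the count says little about the partners. The same shares are the background for the lists that follow. The median log2 ratio was 0.03 for HNE against non-treated, -0.09 for HDE against non-treated and 0.04 for HNE against HDE. The most abundant members were *hmgb1b*, with ratios of 0.974 after HNE and 0.935 after HDE, and *hmgb1a*, with 0.872 and 0.847. Both *hmgb1a* ratios and the *hmgb1b* ratio after HDE had an adjusted p under 0.05 (exact binomial test) but lay under 1.5-fold. Further partners also passed that p, some with higher and some with lower counts.

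Of 20 other CXC ligand names, 11 were matched and only 3 were tested. The other 8 had at most 2 counts in any library, and 6 of them were listed at 0 in all 3. *cxcl14* was the most abundant, at 37.9, 34.2 and 33.5 FPKM, with ratios of 0.905 after HNE and 0.889 after HDE, neither of them called. *cxcl18b*, an inflammatory chemokine of fish, had 45 counts without treatment, 32 after HNE and 73 after HDE. It rose 1.85-fold after HDE (1.26 to 2.75; adjusted p = 0.00845, exact binomial test) and was lower after HNE than after HDE, at a ratio of 0.388 (0.248 to 0.595; adjusted p = 6.0e-05, exact binomial test). The third, *cxcl20*, had 12, 15 and 21 counts and was not called. Thus *cxcl12a*, *cxcl12b* and *cxcl14* were the CXC ligands matched by name with more than 100 counts in each library.

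The other chemokine receptors were sparse too. Of 25 names, 17 were matched and 3 tested, and the other 14 had at most 11 counts in any library. *ackr4b*, a scavenger receptor for CC chemokines, fell after HNE from 77 to 34 counts, a ratio of 0.446 (0.289 to 0.676; adjusted p = 9.0e-04, exact binomial test). After HDE it had 59 counts, a ratio of 0.874 (0.612 to 1.24). For HNE against HDE the ratio of *ackr4b* was 0.510 (0.324 to 0.791; adjusted p = 0.0141, exact binomial test), which was called. *ccr6a* had 13, 24 and 11 counts, with no call. The third, *cxcr3.2*, had 24, 13 and 21 counts. Its ratio after HNE was 0.547 (0.256 to 1.12), and it was not called in any comparison. The summed receptors of this list had 155, 116 and 136 counts, fewer in every library than either *cxcr4a* or *cxcr4b* alone.

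Cell types known to carry these receptors were read through markers. All lists held detected markers. For the lateral line, 15 of 15 names were tested. *epcam*, an epithelial adhesion gene, rose 1.81-fold after HNE and 1.70-fold after HDE, and *hmx2*, a homeobox gene of the otic and lateral line placodes, was lower after HNE than after HDE, at a ratio of 0.623. The other 13 were not called in any comparison. Among them, *atoh1a* had ratios of 0.798 after HNE (0.693 to 0.919; adjusted p = 0.0138, exact binomial test) and 0.684 after HDE (0.586 to 0.796; adjusted p = 1.0e-05, exact binomial test), both under 1.5-fold. Called or not, 9 of the 15 were lower and 6 higher after HNE, and 6 were lower and 9 higher after HDE. *cdh2*, the neural cadherin gene and the other abundant member, had ratios of 1.00 and 1.02. The summed list had 987, 1108 and 1099 CPM in the non-treated, HNE and HDE library. This is 17468, 19420 and 17036 counts, of which *epcam*, a gene of many epithelia, gave 2544, 4567 and 3792, so the higher sum after HNE is carried by that gene. The list's median log2 ratio was -0.04 after HNE and 0.04 after HDE. Of the germ cell markers, 6 of 10 passed the count filter and 0 were called. *ddx4*, the vasa gene, had 87, 71 and 64 counts and *nanos3* had 22, 21 and 16. The parts of these cell types in the counts of the 4 genes were not tested.

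Of 18 endothelial markers tested, 0 were called against the non-treated library in either direction. The list summed to 320, 298 and 328 CPM, and the medians were -0.13 after HNE and 0.02 after HDE. Called or not, 12 were lower and 6 higher after HNE, and 9 were lower and 9 higher after HDE. In HNE against HDE, 16 were lower and 2 higher, with a median of -0.14. *pecam1*, a junction protein gene, was lower after HNE than after HDE, at a ratio of 0.652. *fli1a*, a vascular transcription factor gene, had ratios of 0.90 and 0.970, and *klf2b*, of a flow-responsive family, had 1.02 and 1.05. Blood stem cell genes had 8 of 10 members tested and 0 called, with medians of -0.19 and -0.09. After HNE 7 of them were lower and 1 higher, and after HDE 4 were lower and 4 higher. *meis1b* and *gata2a*, the most abundant, had ratios of 0.977 and 0.699 after HNE and of 1.06 and 0.871 after HDE. Without treatment *meis1b* gave 3732 of the list's 5372 counts, and *gata2b* and *gfi1ab* only 13 and 14. Which cells of the embryo these reads came from was not tested. The *gata2a* ratio after HNE (0.611 to 0.798; adjusted p = 2.3e-06, exact binomial test) was not called because it lay under 1.5-fold. The partner, lateral line and endothelial lists also hold genes with an adjusted p under 0.05 (exact binomial test) that lay under 1.5-fold. In any list, not called therefore does not mean unchanged. *runx1* was listed at 0 counts in all 3 libraries, and whether this is a failed estimate is not known. Among 11 tested genes of retinal ganglion and sensory neurons, in which *cxcr4b* is also found, *neurog1* fell in both Z-REX libraries, to ratios of 0.657 and 0.491, and *pou4f2* fell after HNE, to 0.657. *alcama* had ratios of 0.955 and 1.07.

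Of 19 leukocyte genes tested, 9 fell and 0 rose after HNE, with a median log2 ratio of -0.84, and 0 fell and 3 rose after HDE, with a median of -0.01. The summed list had 207 CPM without treatment, 140 after HNE and 209 after HDE, whereas *cxcr4b* had 17.7, 18.2 and 14.8. *mpeg1.1*, *mfap4*, *cybb* and *spi1b* had the largest changes after HNE among the called genes, with ratios of 0.233, 0.352, 0.438 and 0.460. Called or not, 16 of the 19 were lower after HNE and 3 higher. The 3 that rose after HDE were *cyba*, *mmp9* and *mmp13a*, with ratios of 1.70, 1.60 and 1.73. After HNE these had ratios of 1.33, 0.913 and 1.05, not called. *lyz* and *rac2*, the most abundant, had ratios of 0.490 and 0.95. The study chose *lyz*, *mpx*, *mpeg1.1* and *coro1a* on these same libraries, so they are no independent evidence. Without them, 5 of 15 fell after HNE, and the median was -0.48. The list itself was written with earlier results of these data known, so these 15 genes are not independent evidence either. *il34*, in the same list, encodes a ligand and is not itself a leukocyte marker. Apart from these libraries, the study reported lower *lyz*, *mpeg1.1* and *coro1a* after HNE Z-REX by quantitative PCR. It also reported fewer neutrophils and macrophages by imaging of live embryos. Those measurements were not examined here. The part of leukocytes in the *cxcr4b* counts was not tested.

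Hypoxia-inducible genes were listed because *CXCR4* and *CXCL12* are known as hypoxia-responsive genes in mammals. Of 14 tested, 3 fell after HNE and 4 rose after HDE. *egln3*, which encodes a prolyl hydroxylase, fell to a ratio of 0.480 after HNE and rose 3.76-fold after HDE. *ankrd37* had ratios of 0.51 and 2.45, and *p4ha1b*, a collagen prolyl hydroxylase gene, 0.581 and 2.47. *pfkfb3*, a glycolytic regulator gene, had a ratio of 0.683 after HNE (0.555 to 0.839), not called, and rose 1.59-fold after HDE. *pfkfb4b* had ratios of 1.1 and 1.23, not called. Summed, the list had 235, 202 and 382 CPM in the non-treated, HNE and HDE library. This is 4151, 3533 and 5929 counts. *p4ha1b* gave 718, 413 and 1554 of them, *egln3* 286, 136 and 943, and *ankrd37* 178, 90 and 382. Most of the larger sum in the HDE library is thus carried by these 3 genes. The list's median log2 ratio was -0.12 after HNE and 0.30 after HDE. Against non-treated, 10 of the 14 had a ratio above 1 in the HDE library and 4 a ratio below 1. In the HDE library, where the summed list was highest, all 4 genes of the axis had their lowest normalized counts with TMM. For *cxcl12a* this was close to a tie, at 46.4 CPM after HDE and 46.6 after HNE. With total counts, *cxcl12a* was lowest after HNE. The hypoxia list was also written with earlier results of these data known. The part of hypoxia in the levels of the 4 genes was not tested.

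**Figure D4:**
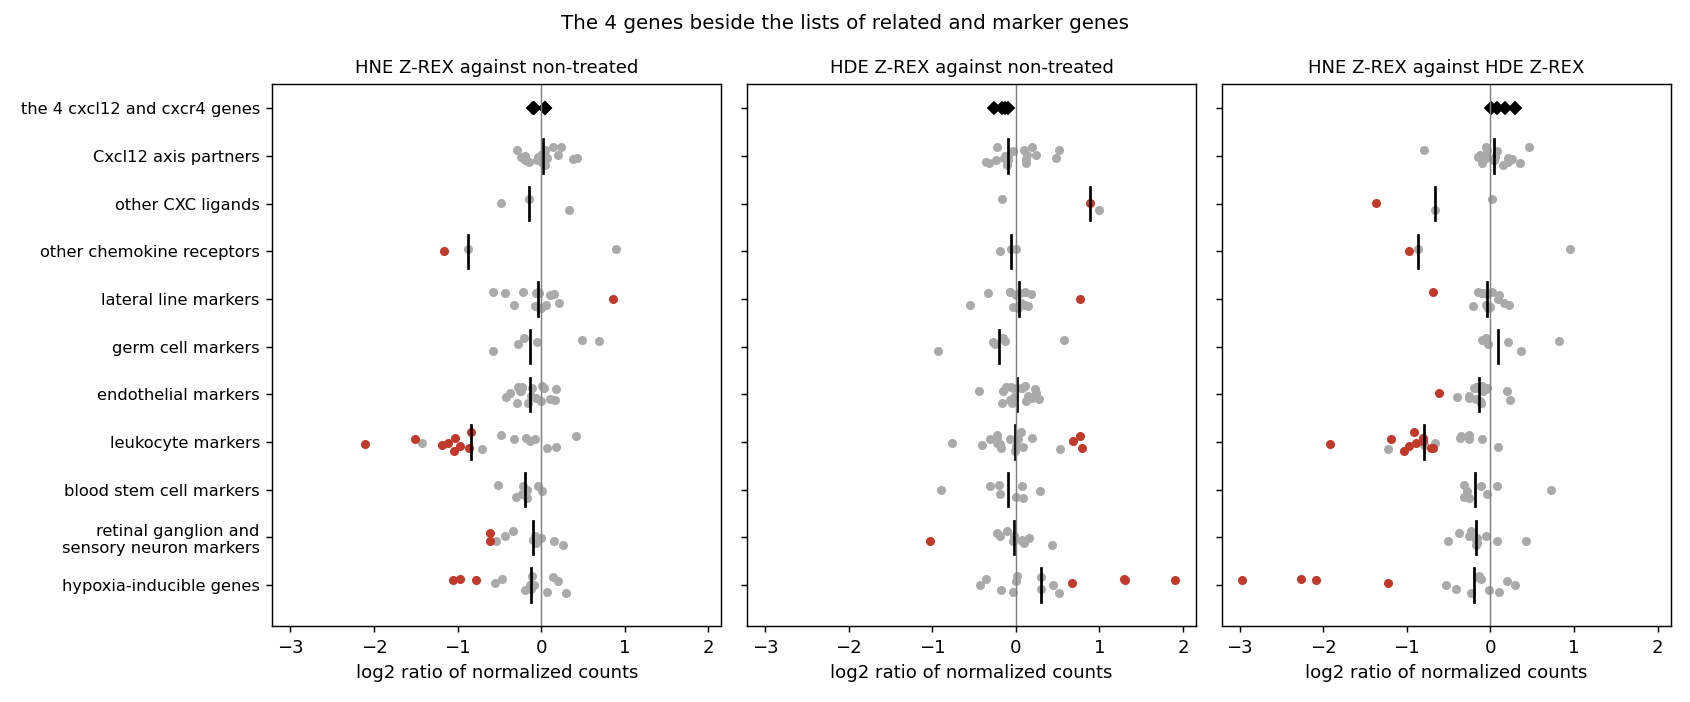
Log2 ratios of the 4 *cxcl12* and *cxcr4* genes (black diamonds) and of the tested members of 10 lists (dots, called genes in red) in the 3 comparisons, with a bar at each list's median. The 4 genes lie between -0.25 and 0.30, while leukocyte genes reach below -2 after HNE and hypoxia-inducible genes are spread from below 0 to 1.91 after HDE.

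Genes with a pattern like that of each member were sought by the distance between their pair of log2 ratios to the non-treated library, among genes with a mean count within 2-fold of the member's. The distance covers 3 libraries, and both ratios share the non-treated one. For *cxcl12a* the nearest were *si:ch1073-385i9.2*, *ncaph* and *idh3a*, at distances of 0.0027 to 0.0043. For *cxcl12b* they were *tmem180*, *si:ch211-197h24.6* and *naa20* (0.0036 to 0.0052), and for *cxcr4a* they were *smoc2*, *C15H11orf57* and *si:dkeyp-110e4.6* (0.0011 to 0.0036). *cxcr4b* had *gria3a*, *pdgfab* and *matn3b* as nearest (0.0093 to 0.012). Such patterns were common. Within a distance of 0.1 lay 15.8% of the 4514 genes of like abundance for *cxcl12a*, 12.4% of 4519 for *cxcl12b*, 8.74% of 5916 for *cxcr4a* and 4.12% of 5895 for *cxcr4b*.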

How the data were processed

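FPKM values were made by the authors with Cufflinks 2.2 from reads trimmed by cutadapt 1.8 and aligned by tophat 2.1 to GRCz10. The kit was strand-specific. The deposited counts are expected counts per gene, unscaled and fractional for some genes, and the counting tool is not given in the sources used here. They were rounded to whole numbers. TMM factors came from edgeR 4.0.16 in R 4.3.3. The 18563 genes averaging 10 counts or more were tested by scipy 1.17.1's exact binomial test, with Benjamini-Hochberg adjustment over all of them. The test was checked on simulated Poisson counts. These hold counting error only, so the check does not cover the spread between replicates. Intervals are Clopper-Pearson for ratios and shares, conditional exact for odds ratios and Poisson for levels, at 95%. FPKM intervals rescale those of the counts.

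Members and lists were chosen with earlier results of these data known. From each list the text names up to 4 called members with the largest change and the 2 most abundant by FPKM, and for each member the 3 genes nearest in pattern. *cxcl20*, *cxcr3.2*, *atoh1a*, *gata2b*, *gfi1ab*, *cyba*, *mmp9*, *mmp13a*, *runx1* and *il34* were named after their values were seen. In the ligand, receptor, germ cell and stem cell lists, the filter removed low members.

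The alternatives were DESeq2 1.42.0 size factors, total counts, other filters, other fold thresholds, edgeR's exact test with an assumed biological coefficient of variation, and FPKM with a pseudocount. Intervals with other scalings were chosen after seeing the data. No sequence or genome position is given.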

Additional observations from a re-analysis of the deposited data

How the results depend on the processing

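Under all 10 alternatives, 0 of the 4 genes were called in each of the 3 comparisons. The log2 ratios of the 4 lay between -0.262 and 0.299, so no setting with a fold threshold could call them. Only the setting with no fold threshold rested on the adjusted p. The log2 ratios of the 4 genes kept their sign, except that *cxcl12a* in HNE against HDE turned to -0.048 with total counts. Over the settings with a test, the lowest adjusted p of any member was 0.0672, that of *cxcl12b* in HNE against HDE. Of the 12 intervals of the members, 3 exclude 1 with TMM or DESeq2 size factors and 0 with total counts. The numbers of all genes called depended on the setting (given in the order HNE to non-treated, HDE to non-treated, HNE to HDE). They were 2729, 3917 and 3093 with no fold threshold, and 268, 282 and 248 with a 2-fold threshold. In edgeR's exact test they were 149, 131 and 106 when the biological coefficient of variation was set to 0.1, and 34, 16 and 19 with 0.2. FPKM with a pseudocount of 0.1 and no test gave 1719, 1923 and 1742. In every other setting they stayed within 1.5 times. No paired analysis was possible because each condition has 1 library, and for the same reason no library could be left out. Receptor counts of 230 to 319 give wider counting intervals than ligand counts of 681 to 878, and the spread between replicates is unknown.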
